A study of Mus musculus with 12 samples.

Results

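Chemokines and their receptors were followed in the livers of 2 mouse models that lack *Yap1* in the liver epithelium. Genes were taken by name: every row of both deposited tables called Ccl, Cxcl, Ccr, Cxcr or Ackr with a number, together with *Cx3cl1*, *Cx3cr1*, *Xcl1* and *Xcr1*. The rule found 60 of the 41743 genes, 38 ligands and 22 receptors. Changes were tested for the 36 members that reached at least 1 TPM (transcripts per 1000000, a level relative to transcript length and library total) in at least 3 of the 12 livers.

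Whole-liver RNA of 12 female mice, 3 to 4 months old, was sequenced in 4 groups of 3, and each liver came from a separate mouse. YAPKO mice had lost both copies of *Yap1* through *Foxa3*-Cre, which is active in the foregut endoderm from which hepatocytes and bile duct cells arise, and were compared with WT (C57BL/6) littermates. YAPKO TAZHET mice had also lost 1 copy of *Wwtr1*, the gene of TAZ, and were compared with WT (mixed) littermates from a cross of floxed FVB mice with C57BL/6 *Foxa3*-Cre mice. The YAPKO line carries a ROSA-stop-EYFP reporter as well. The knockout is directed at cells of the endoderm and not at blood-derived cells, and where Cre acted in these livers was not checked here. The genotype and the background differ together between the models, so a difference between the models cannot be told apart from a difference between the backgrounds or sets of animals. In every group, values are given in the order LM75, LM192 and LM193 for WT (C57BL/6), LM74, LM189 and LM191 for YAPKO, LM226, LM227 and LM230 for WT (mixed), and LM225, LM250 and LM251 for YAPKO TAZHET livers.

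Chemokines are small secreted proteins that steer leukocytes along a gradient through receptors coupled to the inhibitory G protein. CC ligands such as *Ccl2* act mainly on monocytes and macrophages, CXC ligands that carry the ELR motif act on neutrophils, and the ligands induced by interferon act on T cells. Atypical receptors bind chemokines and remove them without signalling through G proteins. In the liver, resident Kupffer cells, endothelial cells, stellate cells, bile duct cells and stressed hepatocytes are all known sources of ligands. In whole tissue, fewer cells of a type and less RNA per cell cannot be told apart.

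*Yap1* was at 1.67 to 3.72 TPM in YAPKO livers against 28.2 to 30.5 TPM in their littermates, and at 8.63 to 11.5 TPM in YAPKO TAZHET livers against 31 to 33.2 TPM, lower in every liver with the deletion. *Wwtr1* was at 11.5 to 14.1 TPM as deposited in YAPKO TAZHET livers, above the 7.73 to 8.38 TPM of their littermates. After the rescaling given below it did not pass (log2 fold change 0.26, limma adjusted p = 0.0731). In YAPKO livers *Wwtr1* was at 13.3 to 16.65 TPM against 6.26 to 6.83 TPM (log2 fold change 0.73, limma adjusted p = 0.00197). The level of *Wwtr1* does not check the loss of 1 copy. Hepatocyte markers summed to 71710 TPM or more in every liver. Deposited TPM ran higher in both models for most genes, the median log2 fold change (log2FC) of the 12159 tested genes being 0.28 in YAPKO and 0.25 in YAPKO TAZHET livers, so each library was rescaled by 1 factor, after which both medians were -0.03. Every log2FC below is a difference of mean log2(rescaled TPM + 1), a scale that understates the change of low genes, with its standard error (SE), while levels per liver are TPM as deposited. The depth behind the TPM is unknown, and errors come from the spread among the 3 mice within each group.

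In YAPKO livers, 17 of the 36 tested members were higher and 4 lower than in littermates at a limma adjusted p under 0.05, and 15 did not pass the test. Over all tested genes, 36% passed in this comparison, 18.7% higher and 17.3% lower. The median log2FC of the 36 members was 0.69, against -0.03 over all tested genes in either comparison. Without scaling the share of called genes that were higher went from 51.9% to 84% over all genes. In YAPKO TAZHET livers, 19 members were higher, 2 were lower and 15 did not pass, with a median of 0.74, where 37.7% of all tested genes passed (19.2% higher and 18.4% lower). After quantile normalization the split in YAPKO TAZHET livers was 16 higher and 5 lower. In both models 15 members were higher and 1, *Cxcl12*, was lower, against 14.9% of all tested genes higher and 12.4% lower in both, and 10 members passed in neither. The TPM of YAPKO and WT livers, as deposited, did not overlap for 17 of the 36 members that were higher and 3 that were lower, against 47.2% and 9.2% of all tested genes. In YAPKO TAZHET livers this held for 19 and 2 members, against 44.4% and 9.96%. The members lie near these shares, and deposited TPM ran higher in both models for most genes. A lack of overlap given for a gene below therefore does not by itself set that gene apart. The filter shaped these counts, because 10 of the 36 tested members were under 1 TPM in all 6 WT livers and passed it only through the models. Among the 22 members with at least 3 WT livers at 1 TPM, 9 were higher and 4 lower in YAPKO livers (median 0.39), and 10 were higher and 2 lower in YAPKO TAZHET livers (median 0.15). The median of all 36 members in YAPKO TAZHET livers includes the fitted values of *Cxcl5*, *Ccl17* and *Ccl8*, whose WT (mixed) livers are all at 0.

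**Figure D1:**
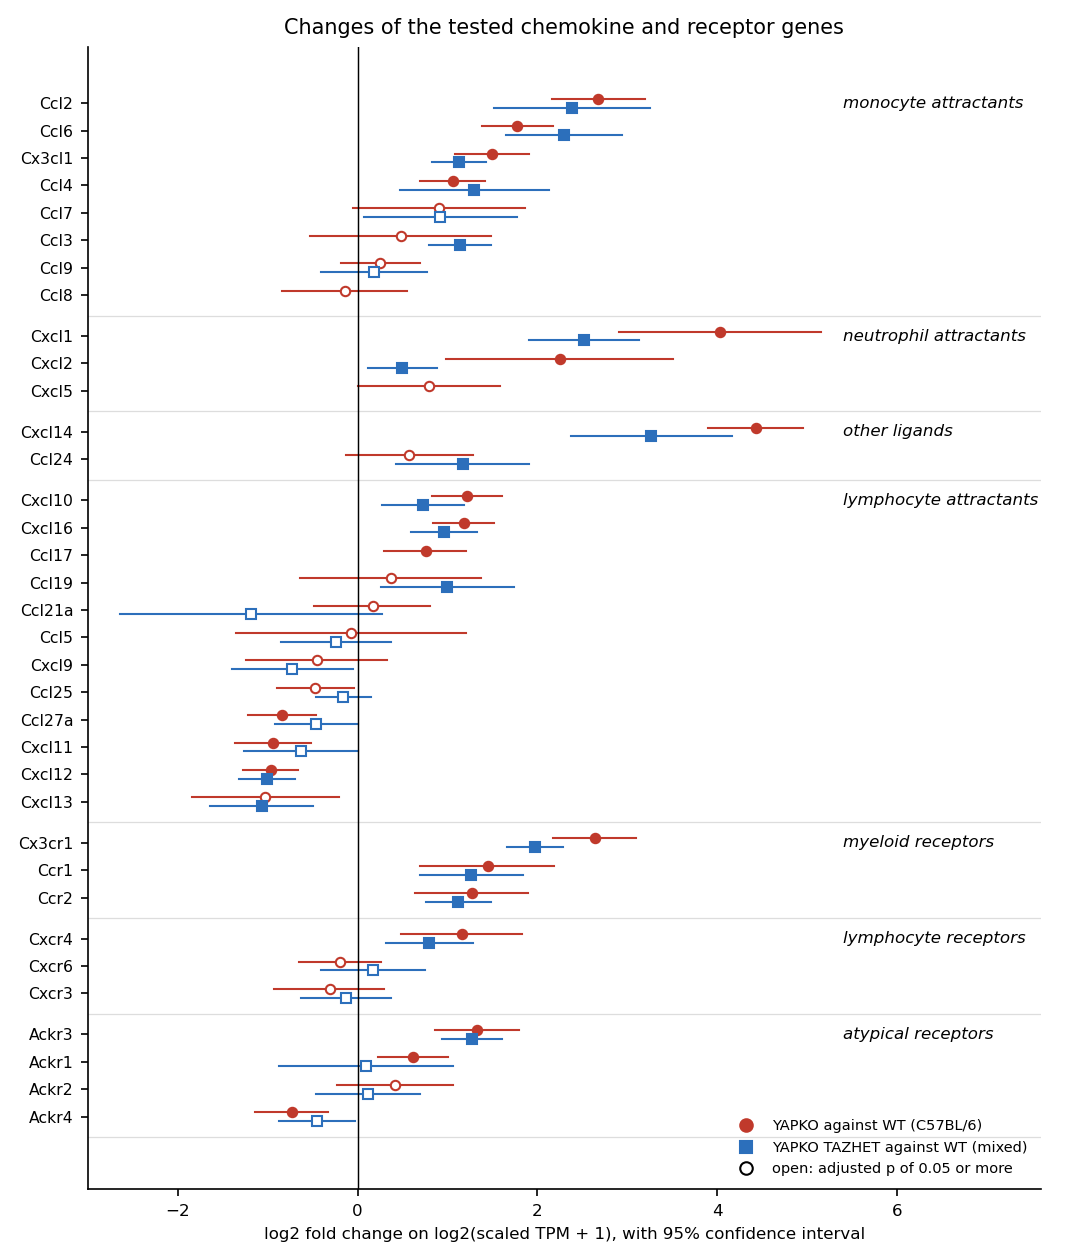
Log2 fold change (log2FC) of the tested chemokine and receptor genes (x axis, on log2(scaled TPM + 1), bars are 95% confidence intervals) in YAPKO (red circles) and YAPKO TAZHET livers (blue squares) against their own WT littermates, 3 mice per group. Filled marks passed the limma test at an adjusted p of 0.05 and open marks did not, 1 tested member is not drawn, no mark is drawn for Cxcl5, Ccl17 and Ccl8 in YAPKO TAZHET livers, because their WT (mixed) livers are all at 0, and the farthest marks to the right are those of Cxcl14 and Cxcl1 in YAPKO livers, at 4.43 and 4.03.

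Of 8 tested monocyte attractants, 4 were higher in YAPKO and 5 in YAPKO TAZHET livers, with none lower. Of 3 tested neutrophil attractants, 2 and 3 were higher. *Cx3cl1*, *Ccl3* and *Ccl4* among the former, and *Cxcl2* and *Cxcl5* among the latter, reached 1 TPM in no WT liver and passed the filter only through the models, so they had little room to be called lower. For all counts of this paragraph, the shares among all tested genes were 18.7% higher and 17.3% lower in YAPKO livers. In YAPKO TAZHET livers they were 19.2% and 18.4%. The 12 tested lymphocyte attractants lay near these shares. Of them, 3 were higher and 3 lower in YAPKO livers (median -0.26), and 3 higher and 2 lower in YAPKO TAZHET livers (median -0.35). Without scaling the first of these medians was 0.05. The myeloid receptors *Cx3cr1*, *Ccr1* and *Ccr2* were higher in both models, and they, *Ccl17* and *Ackr3* passed the filter in the same way. Counted as ligands and receptors, 10 of 25 tested ligands were higher and 3 lower in YAPKO livers (median 0.57), and 7 of 11 tested receptors were higher and 1 lower (median 0.89). In YAPKO TAZHET livers 13 ligands were higher and 2 lower (median 0.73), and 6 receptors were higher and 0 lower (median 0.80).

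*Cxcl1* (ENSMUSG00000029380, chromosome 5 from 90891241 to 90893115 of GRCm38), a ligand of the neutrophil receptor CXCR2, was higher in both models. *Cxcl1* was at 3.59, 6.45 and 6.18 TPM in WT (C57BL/6) and at 59.4, 248 and 141 TPM in YAPKO livers. The lowest YAPKO liver, LM74, was far above the highest WT liver, and the YAPKO livers spread widely among themselves. The log2FC was 4.03 (SE 0.49, limma adjusted p = 0.000601). *Cxcl1* in the mixed set was at 6.57, 5.64 and 10.3 TPM in WT and at 79.7, 42 and 57.2 TPM in YAPKO TAZHET livers, again without overlap, a log2FC of 2.52 (SE 0.26, limma adjusted p = 0.000367). The share of *Cxcl1* in the summed ligand TPM was 13% to 38.6% in YAPKO livers, highest in LM189, and 1.61% to 2.65% in WT (C57BL/6) livers.

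*Cxcl2* (ENSMUSG00000058427, chromosome 5 from 90903871 to 90905938), which shares the receptor with *Cxcl1*, was at 0.307, 0.228 and 0.0609 TPM in WT (C57BL/6) and at 1.5, 13.2 and 6.24 TPM in YAPKO livers. Livers LM189 and LM191 were well above LM74, as for *Cxcl1*. The log2FC was 2.25 (SE 0.55, limma adjusted p = 0.0144). *Cxcl2* stayed under 1 TPM in the mixed set, at 0.191, 0.126 and 0 TPM in WT and 0.993, 0.45 and 0.548 TPM in YAPKO TAZHET livers, and its log2FC of 0.5 (limma adjusted p = 0.0441) lost the call without any 1 of the 6 livers, with adjusted p from 0.0516 to 0.123. The groups did not overlap there. With a pseudocount of 0.1 the log2FC of *Cxcl2* were 3.92 and 1.77, with 9 of its 12 values under 1 TPM.

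*Cxcl5*, a further CXCR2 ligand, was at 0.0725, 0 and 0 TPM in WT (C57BL/6) and 2.1, 1.17 and 0 TPM in YAPKO livers, and did not pass the test (log2FC 0.79, limma adjusted p = 0.107). Liver LM191 was at 0 with the WT livers, and without it the log2FC was 1.19 (limma adjusted p = 0.0055), while without LM74 it was 0.48 (limma adjusted p = 0.271). *Cxcl5* in the mixed set was listed at 0 in all 3 WT livers and was at 0.92, 0.227 and 1.29 TPM in YAPKO TAZHET livers (limma adjusted p = 0.033). That call was lost without LM226, LM227, LM230, LM225 or LM251 (limma adjusted p from 0.0697 to 0.0993), and no fold is given against a group at 0. *Cxcl3* reached 0.13 TPM at most and *Cxcl15* was at 0 in all of them.

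The receptors for these ligands were low. *Cxcr2*, which brings neutrophils to *Cxcl1*, *Cxcl2* and *Cxcl5*, was at 0.0374, 0.209 and 0.223 TPM in WT (C57BL/6), 0.542, 0.814 and 0.21 TPM in YAPKO, 0.0387, 0.115 and 0.136 TPM in WT (mixed) and 0.865, 0.431 and 0.334 TPM in YAPKO TAZHET livers. Every YAPKO TAZHET liver was above its WT littermates, while LM191 of the YAPKO livers lay among the WT livers. *Cxcr1* reached 0.0884 TPM at most, so neither passed the filter and neither was tested. Of the 7 neutrophil markers 4 were tested, and all 4 were higher in YAPKO livers. In YAPKO TAZHET livers 1 of the 4, *S100a8*, was higher. *S100a9*, *Retnlg* and *Csf3r* did not pass there (limma adjusted p = 0.0646, 0.236 and 0.0918). The summed level of all 7 markers was 49.6 to 55.5 TPM in YAPKO livers against 7.58 to 14.4 TPM. It was 10.8 to 53.3 TPM in YAPKO TAZHET livers against 4.49 to 7.06 TPM, where LM225 held 53.3 TPM and the other livers 10.8 and 17.1 TPM. *Ly6g*, a defining neutrophil marker, was at 0 in 11 livers and at 0.339 TPM in LM191. The part of neutrophils in these ligand levels was not tested.

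Upstream bases are shown for *Cxcl14* and *Cxcl1*, both described in detail here, for *Cxcl2* and *Cxcl10*, which hold NF-kB letters as *Cxcl1* does, and for *Ccl17* and *Cxcl13*, the only members with the TEAD letters among those tested for which a window was found. YAP and TAZ act on genes through TEAD factors, and NF-kB is a well-known inducer of chemokine genes. Sequences are from RefSeq on GRCm38.p6, read 5′ to 3′ on the gene's strand and ending at or before the transcript start. Capitals mark matches to the NF-kB consensus or, in *Ccl17* and *Cxcl13*, to the TEAD letters CATTCC or their reverse complement GGAATG. Windows lie at chr5:90890995-90891240 (plus strand), chr5:90903649-90903870 (plus), chr5:92348890-92349139 (minus), chr13:56296552-56296801 (minus), chr8:94810203-94810452 (plus) and chr5:95956689-95956938 (plus).
Cxcl1: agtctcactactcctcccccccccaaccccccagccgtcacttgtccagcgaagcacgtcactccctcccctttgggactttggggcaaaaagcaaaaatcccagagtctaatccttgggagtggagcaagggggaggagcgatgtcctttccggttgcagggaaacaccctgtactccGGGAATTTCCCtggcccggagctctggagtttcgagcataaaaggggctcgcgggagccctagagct
Cxcl2: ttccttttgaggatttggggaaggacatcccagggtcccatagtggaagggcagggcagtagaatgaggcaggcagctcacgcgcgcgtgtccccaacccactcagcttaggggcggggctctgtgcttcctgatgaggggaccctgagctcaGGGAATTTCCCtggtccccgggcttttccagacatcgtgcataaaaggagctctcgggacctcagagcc
Cxcl10: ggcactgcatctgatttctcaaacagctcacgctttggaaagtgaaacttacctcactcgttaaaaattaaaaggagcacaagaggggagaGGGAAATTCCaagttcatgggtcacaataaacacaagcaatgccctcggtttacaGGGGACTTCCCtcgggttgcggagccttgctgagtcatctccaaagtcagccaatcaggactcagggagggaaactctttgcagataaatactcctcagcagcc
Cxcl14: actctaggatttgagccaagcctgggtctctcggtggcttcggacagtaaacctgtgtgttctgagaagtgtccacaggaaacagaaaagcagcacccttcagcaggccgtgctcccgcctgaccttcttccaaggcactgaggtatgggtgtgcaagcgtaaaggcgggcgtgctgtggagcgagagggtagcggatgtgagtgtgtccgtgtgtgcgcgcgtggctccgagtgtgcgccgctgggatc
Ccl17: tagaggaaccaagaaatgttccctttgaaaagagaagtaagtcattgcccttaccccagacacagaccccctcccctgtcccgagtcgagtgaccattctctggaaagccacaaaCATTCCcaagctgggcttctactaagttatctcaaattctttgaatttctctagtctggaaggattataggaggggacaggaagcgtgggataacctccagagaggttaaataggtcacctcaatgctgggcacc
Cxcl13: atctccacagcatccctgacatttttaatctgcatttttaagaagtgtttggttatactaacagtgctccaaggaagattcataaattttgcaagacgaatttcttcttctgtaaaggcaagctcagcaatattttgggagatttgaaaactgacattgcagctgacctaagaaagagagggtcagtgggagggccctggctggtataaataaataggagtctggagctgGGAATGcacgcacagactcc

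The same 11 letters stood upstream of *Cxcl1* and *Cxcl2*, 71 to 61 and 97 to 87 bases before the RefSeq start, and each run holds overlapping matches on both strands. *Cxcl10* held matches at 159 to 150 and at 104 to 94 bases before the start. The 250 bases before the start were found for 45 of the 60 members. The NF-kB consensus was in 11 of these 45, and in 4 of the 11 members with a window that were higher in both models (*Ccr1*, *Cxcl1*, *Cxcl10* and *Cxcl2*), against 8.23% of 27025 genes and 7.25% of 32851 promoters of the same length. The TEAD letters were in 6 of the 45 (*Ccl17*, *Ccl20*, *Ccr6*, *Cxcl13*, *Cxcl3* and *Cxcr2*) and in 0 of those 11, against 14.4% of genes and 12.6% of promoters. A match is a description of letters and says nothing of binding in these livers.

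*Cxcl14* (ENSMUSG00000021508, chromosome 13 from 56288643 to 56296551), a chemokine made by many epithelia, had the largest log2FC of all members in both models. *Cxcl14* was at 2.12, 2.73 and 1.98 TPM in WT (C57BL/6) and at 64.8, 84 and 116 TPM in YAPKO livers, with LM191 highest. The groups were far apart, with a log2FC of 4.43 (SE 0.23, limma adjusted p = 9.17e-06). *Cxcl14* in the mixed set was at 3.1, 2.3 and 1.19 TPM in WT and at 70.3, 23.2 and 25.8 TPM in YAPKO TAZHET livers. Liver LM225 stood above LM250 and LM251, and all 3 were above the WT livers. The log2FC was 3.27 (SE 0.39, limma adjusted p = 0.000623). *Ccl24*, which draws eosinophils through CCR3, was at 3.35, 2.7 and 1.57 TPM in WT (C57BL/6) and 8.84, 5.04 and 3.12 TPM in YAPKO livers, where the groups overlapped (log2FC 0.57, limma adjusted p = 0.179). *Ccl24* in the mixed set was at 4.2, 1.44 and 2.4 TPM in WT and 5.9, 8.2 and 12.1 TPM in YAPKO TAZHET livers, all above the WT livers. That log2FC was 1.17 (limma adjusted p = 0.0235), and the adjusted p was 0.0671 without LM227, 0.059 without LM230, 0.0617 without LM250 and 0.0745 without LM251. Its receptor *Ccr3* reached 0.182 TPM at most.

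*Ccl2* (ENSMUSG00000035385, chromosome 11 from 82035571 to 82037453), the main ligand of the monocyte receptor CCR2, led the monocyte attractants. *Ccl2* was at 1.54, 0.522 and 1.39 TPM in WT (C57BL/6) and at 16.9, 16.2 and 12.8 TPM in YAPKO livers. The 3 YAPKO livers were close to each other and far above the WT livers, with a log2FC of 2.68 (SE 0.23, limma adjusted p = 0.0001). *Ccl2* in the mixed set was at 0.872, 0.144 and 1.79 TPM in WT and 14.8, 6.31 and 10.7 TPM in YAPKO TAZHET livers, also without overlap, a log2FC of 2.39 (SE 0.38, limma adjusted p = 0.00234). *Ccl7*, *Ccl12* and *Ccl8*, further monocyte attractants, were low. *Ccl7* was at 0.142, 0.132 and 0.707 TPM in WT (C57BL/6), 3.17, 2.75 and 0.266 TPM in YAPKO, 0, 1.31 and 0 TPM in WT (mixed) and 2.3, 1.04 and 2.07 TPM in YAPKO TAZHET livers, overlapped in both sets and passed in neither (limma adjusted p = 0.125 and 0.0848). *Ccl12* reached 0.982 TPM in 1 liver, LM225, and was not tested, and *Ccl8* was at 0.223, 1.04 and 1.11 TPM in WT (C57BL/6) and 0.995, 0.18 and 1.25 TPM in YAPKO livers, listed at 0 in all WT (mixed) livers and at 2.06, 0 and 0.249 TPM in YAPKO TAZHET livers, and passed in neither model.

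*Ccl6* and *Ccl9* are ligands of CCR1 that macrophages and other myeloid cells make. *Ccl6* was at 9.43, 11.3 and 6.76 TPM in WT (C57BL/6) and at 47.2, 42.8 and 37.3 TPM in YAPKO livers. *Ccl6* in the mixed set was at 12.6, 4.87 and 9.22 TPM in WT and at 49.9, 52.8 and 64.6 TPM in YAPKO TAZHET livers. Neither set overlapped, and the log2FC were 1.78 (SE 0.17, limma adjusted p = 0.00018) and 2.3 (SE 0.28, limma adjusted p = 0.000711). *Ccl9* lies beside *Ccl6* on chromosome 11 and was the most abundant monocyte attractant in WT livers, but passed in neither model. It was at 49, 39.8 and 40.3 TPM in WT (C57BL/6), 83.2, 71.3 and 48 TPM in YAPKO, 61.6, 40.2 and 52.1 TPM in WT (mixed) and 50.4, 80.1 and 91.2 TPM in YAPKO TAZHET livers. The groups overlapped in both sets (limma adjusted p = 0.321 and 0.608). The share of *Ccl9* in the summed ligand TPM was 16% to 21.9% in WT (C57BL/6) and 9.41% to 18.3% in YAPKO livers.

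*Ccl3* and *Ccl4* are inflammatory ligands that activated macrophages make, and *Ccl3* signals through CCR1. *Ccl4* was at 0.173, 0.161 and 0.343 TPM in WT (C57BL/6) and 1.73, 1.95 and 1.77 TPM in YAPKO livers, which were nearly equal, a log2FC of 1.06 (limma adjusted p = 0.00168). *Ccl4* in the mixed set was at 0.716, 0 and 0 TPM in WT and 4.79, 1.45 and 1.35 TPM in YAPKO TAZHET livers, where LM225 stood above the other livers, a log2FC of 1.3 (limma adjusted p = 0.0237) that missed the threshold without LM227 or LM230 (limma adjusted p = 0.0728 and 0.0729). *Ccl3* was at 0.745, 0 and 0 TPM in WT (C57BL/6) and 0, 0.6 and 2.5 TPM in YAPKO livers, which overlapped (log2FC 0.48, limma adjusted p = 0.426). *Ccl3* in the mixed set was at 0.154, 0 and 0 TPM in WT and 1.72, 1.56 and 1.16 TPM in YAPKO TAZHET livers without overlap, a log2FC of 1.14 (limma adjusted p = 0.000974). With a pseudocount of 0.1 the log2FC of *Ccl4* were 2.31 and 3.29, and that of *Ccl3* in YAPKO TAZHET livers was 3.35.

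*Cx3cl1*, a ligand held on the cell membrane that binds CX3CR1, was at 0.675, 0.884 and 0.609 TPM in WT (C57BL/6) and at 5.43, 5.39 and 3.41 TPM in YAPKO livers. *Cx3cl1* in the mixed set was at 0.603, 0.377 and 0.418 TPM in WT and at 2.66, 2.44 and 2.7 TPM in YAPKO TAZHET livers. No WT liver reached 1 TPM and every liver of the models was above 2 TPM. Both log2FC were 1.5 (SE 0.18, limma adjusted p = 0.000555) and 1.13 (SE 0.13, limma adjusted p = 0.000544), the latter 1.99 with a pseudocount of 0.1.

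*Cxcl12* (ENSMUSG00000061353, chromosome 6 from 117168535 to 117181367), the ligand of CXCR4 and ACKR3 that retains lymphocytes and progenitor cells in tissues, was the most abundant member by its mean over the 12 livers, and the only 1 that was lower in both models. *Cxcl12* was at 111, 136 and 131 TPM in WT (C57BL/6) and at 88.7, 66.6 and 93.1 TPM in YAPKO livers. *Cxcl12* in the mixed set was at 131, 146 and 106 TPM in WT and at 92.5, 69 and 75 TPM in YAPKO TAZHET livers. All livers of both models were under all of their WT littermates. Both log2FC were -0.96 (SE 0.13, limma adjusted p = 0.00112) and -1.01 (SE 0.14, limma adjusted p = 0.00122), the first of them -0.61 (limma adjusted p = 0.0105) without scaling. Endothelial markers, whose cells are a known source of *Cxcl12*, gave 3 lower of 7 tested in YAPKO livers (*Clec4g*, *Kdr* and *Oit3*), and 3 lower (*Kdr*, *Lyve1* and *Oit3*) and 1 higher (*Cdh5*) in YAPKO TAZHET livers. The summed level of the endothelial markers, as deposited, was 82 to 121 TPM in YAPKO livers against 90.1 to 101 TPM. In YAPKO TAZHET livers it was 98.5 to 137 TPM against 120 to 126 TPM. Deposited TPM ran higher in both models for most genes, so the overlap of these sums need not hold on the rescaled scale of the log2FC. Of the 8 stellate cell and fibroblast markers, 4 (*Pdgfrb*, *Dcn*, *Col1a1* and *Col3a1*) were higher in each model and 1, *Lrat*, was lower in YAPKO livers. The part of these cells in the level of *Cxcl12* was not tested.

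*Cxcl9*, *Cxcl10* and *Cxcl11* lie side by side on chromosome 5, are induced by interferon and share the T cell receptor CXCR3, but moved differently. *Cxcl10* was at 2.63, 3.49 and 2.76 TPM in WT (C57BL/6) and at 12, 11.7 and 7.71 TPM in YAPKO livers, without overlap, a log2FC of 1.22 (SE 0.17, limma adjusted p = 0.00119). *Cxcl10* in the mixed set was at 5.13, 3 and 3.28 TPM in WT and 11.1, 6.6 and 8.04 TPM in YAPKO TAZHET livers, again apart, with a log2FC of 0.73 (limma adjusted p = 0.0216). The adjusted p of that call was 0.07 without LM227, 0.062 without LM230, 0.052 without LM225 and 0.0614 without LM251. *Cxcl11* was at 2.47, 4.3 and 2.57 TPM in WT (C57BL/6) and at 1.51, 1.38 and 1.54 TPM in YAPKO livers, all of which were lower (log2FC -0.94, SE 0.18, limma adjusted p = 0.00541). *Cxcl11* in the mixed set was at 5.26, 2.56 and 2.19 TPM in WT and 3.37, 1.79 and 1.51 TPM in YAPKO TAZHET livers, which overlapped (log2FC -0.63, limma adjusted p = 0.103, and -0.83 with limma adjusted p = 0.0445 without LM225, or -0.36 with limma adjusted p = 0.265 without LM226). *Cxcl9* was at 7.15, 6.35 and 8.82 TPM in WT (C57BL/6), 4.71, 12.5 and 4.68 TPM in YAPKO, 8.3, 4.57 and 5.53 TPM in WT (mixed) and 7.48, 2.93 and 2.91 TPM in YAPKO TAZHET livers. The groups overlapped in both sets and *Cxcl9* passed in neither (limma adjusted p = 0.332 and 0.0869). *Cxcl10* shares 5.9% of its exon bases with *Art3* on the opposite strand.

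*Cxcl16*, a membrane-bound ligand of CXCR6 that macrophages and endothelial cells make, was at 6.34, 6.52 and 6.25 TPM in WT (C57BL/6) and at 25.1, 20.3 and 15.5 TPM in YAPKO livers. *Cxcl16* in the mixed set was at 8.71, 6.06 and 5.88 TPM in WT and at 19.1, 14.5 and 19.6 TPM in YAPKO TAZHET livers. The WT livers were close to each other and every liver of the models was above them. The log2FC values were 1.18 (SE 0.15, limma adjusted p = 0.000703) and 0.96 (SE 0.16, limma adjusted p = 0.00284). *Cxcl16* shares 18.3% of its exon bases with *Zmynd15* on the opposite strand. Its receptor *Cxcr6* was at 0.886, 1.1 and 0.88 TPM in WT (C57BL/6), 1.65, 0.571 and 0.717 TPM in YAPKO, 1.65, 0.544 and 0.591 TPM in WT (mixed) and 1.02, 1.11 and 1.98 TPM in YAPKO TAZHET livers. These overlapped and passed in neither model (limma adjusted p = 0.466 and 0.628).

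Of the ligands that guide lymphocytes through lymphoid tissue, *Cxcl13* draws B cells through CXCR5, and *Ccl19* and *Ccl21a* draw T cells and dendritic cells through CCR7. *Cxcl13* was at 4.17, 3.87 and 1.97 TPM in WT (C57BL/6) and 2.21, 2.32 and 0.37 TPM in YAPKO livers, which overlapped (log2FC -1.03, limma adjusted p = 0.0544, and 0.0401 without LM193 or 0.0438 without LM189, but -0.64 with limma adjusted p = 0.118 without LM191). *Cxcl13* in the mixed set was at 2.05, 1.73 and 3.07 TPM in WT and 1.49, 0.311 and 0.664 TPM in YAPKO TAZHET livers, all lower than WT, a log2FC of -1.06 (SE 0.25, limma adjusted p = 0.0127, and -1.84 with a pseudocount of 0.1). Both differences point down, and the difference between the models was 0.02 (95% confidence interval -1.02 to 1.07). *Ccl19* was at 1.64, 2.29 and 0.272 TPM in WT (C57BL/6) and 4.27, 2.76 and 0.895 TPM in YAPKO livers, which overlapped (log2FC 0.37, limma adjusted p = 0.543, -0.06 without LM193 and 0.74 without LM191). *Ccl19* in the mixed set was at 2.41, 1.26 and 1.5 TPM in WT and 3.01, 5.45 and 8.56 TPM in YAPKO TAZHET livers, without overlap, a log2FC of 1.0 (limma adjusted p = 0.0414). That call was lost without LM226, LM227, LM230, LM250 or LM251 (limma adjusted p from 0.0544 to 0.117). *Ccl21a* ran from 0 to 5.84 TPM, passed in neither model, and shares 99.4% identity with a copy over 96.2% of its transcript, so its reads could be split among copies. *Ccr7* reached 1.86 TPM in 1 liver and *Cxcr5* 0.499 TPM, and neither passed the filter.

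The other lymphocyte attractants passed in YAPKO livers or in neither model. *Ccl27a*, a ligand of CCR10, was at 5.23, 7.67 and 6.73 TPM in WT (C57BL/6) and 5.5, 3.33 and 3.85 TPM in YAPKO livers, which overlapped in TPM while the scaled values gave a log2FC of -0.84 (limma adjusted p = 0.0058, and -0.54 with limma adjusted p = 0.0576 without scaling). *Ccl27a* in the mixed set was at 3.66, 4.53 and 4.83 TPM in WT and 2.73, 4.63 and 3.7 TPM in YAPKO TAZHET livers and did not pass (log2FC -0.46, limma adjusted p = 0.105). *Ccl27a* has copies, 1 of them 99.4% identical over 55.2% of its transcript, so its level is uncertain. *Ccl17*, a ligand of CCR4, was at 0, 0.413 and 0 TPM in WT (C57BL/6) and 0.989, 1.07 and 1.04 TPM in YAPKO livers, just inside the filter, with a log2FC of 0.76 (limma adjusted p = 0.0197, and 2.52 with a pseudocount of 0.1). The call was lost without LM75, LM193, LM189 or LM191 (limma adjusted p from 0.0524 to 0.0703). *Ccl17* in the mixed set was listed at 0 in all 3 WT livers and was at 1.03, 0 and 0 TPM in YAPKO TAZHET livers. *Ccl5*, a T cell attractant, was at 6, 5.98 and 5.32 TPM in WT (C57BL/6), 7.65, 18.3 and 2 TPM in YAPKO, 2.89, 3.73 and 5.85 TPM in WT (mixed) and 5.95, 3.14 and 3.59 TPM in YAPKO TAZHET livers, with LM189 highest and LM191 lowest of all 12. *Ccl25*, a ligand of CCR9, ran from 1.75 to 3.18 TPM over the 12 livers. Neither *Ccl5* nor *Ccl25* passed in either model.

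**Figure D2:**
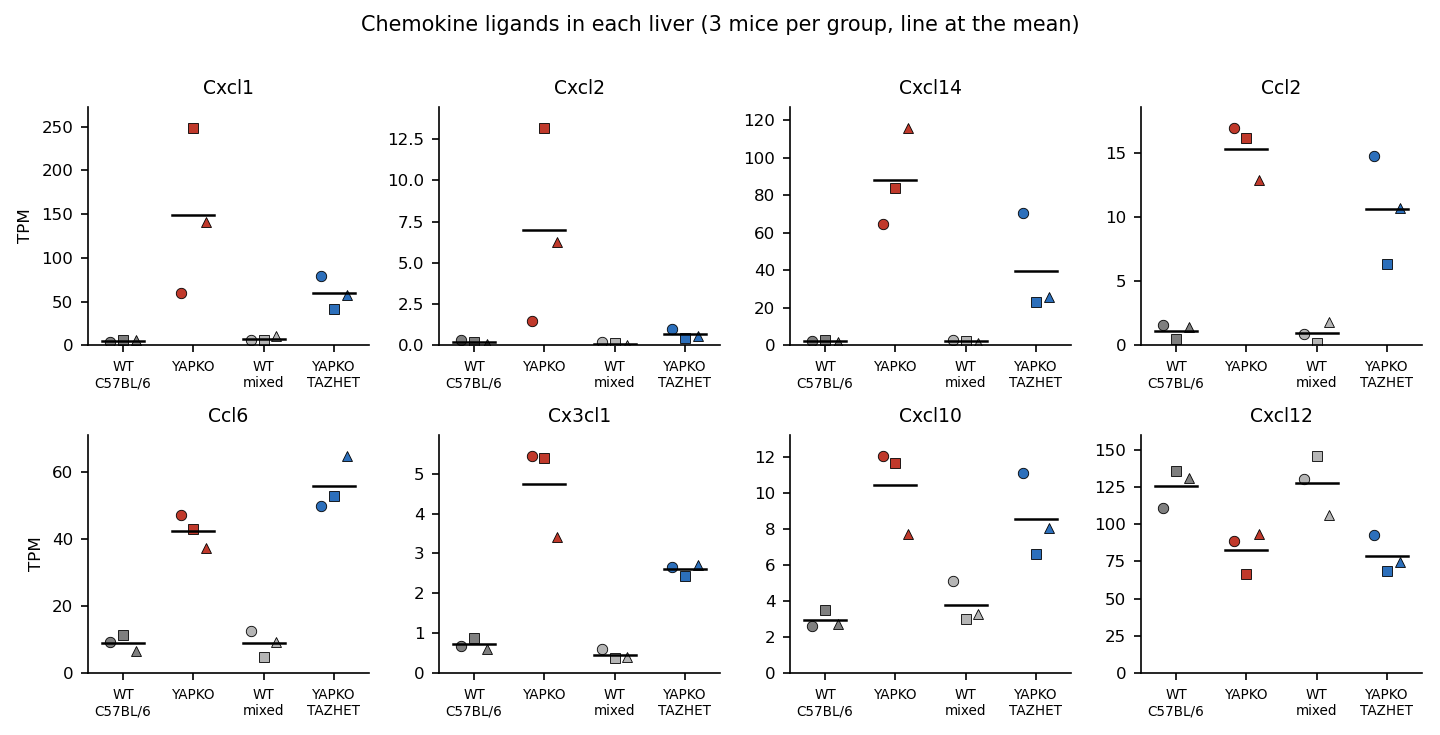
TPM of 8 ligands in each liver (y axis, as deposited and before scaling), with 1 point per mouse and a line at the mean of the 3 mice of a group. Cxcl1, Cxcl2, Cxcl14, Ccl2, Ccl6, Cx3cl1 and Cxcl10 of every YAPKO and YAPKO TAZHET liver sit above their WT littermates, Cxcl12 sits below them, and Cxcl1 and Cxcl2 spread most within the YAPKO group, from 59.4 to 248 TPM and from 1.5 to 13.2 TPM.

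Among the receptors of monocytes and macrophages, *Cx3cr1* (ENSMUSG00000052336, chromosome 9 from 119901616 to 120069879), the receptor for *Cx3cl1*, rose most. *Cx3cr1* was at 0.38, 0.494 and 0.176 TPM in WT (C57BL/6) and at 9.71, 6.25 and 10.6 TPM in YAPKO livers. *Cx3cr1* in the mixed set was at 0.341, 0.155 and 0.161 TPM in WT and at 4.8, 3.79 and 4.44 TPM in YAPKO TAZHET livers. No WT liver reached 0.5 TPM, and the YAPKO livers were all above the YAPKO TAZHET livers. Both log2FC were 2.64 (SE 0.2, limma adjusted p = 6.12e-05) and 1.97 (SE 0.14, limma adjusted p = 5.47e-05), and with a pseudocount of 0.1 they were 4.03 and 3.58.

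*Ccr1*, the receptor for *Ccl3*, *Ccl6* and *Ccl9*, was at 0.0805, 0 and 0.12 TPM in WT (C57BL/6) and at 5.03, 1.3 and 1.35 TPM in YAPKO livers. *Ccr1* in the mixed set was at 0.208, 0.0412 and 0.0733 TPM in WT and at 3.54, 1.39 and 1.21 TPM in YAPKO TAZHET livers. All model livers were above 1 TPM and all WT livers under 0.25 TPM, with LM74 and LM225 highest in their groups. Both log2FC were 1.45 and 1.26 (limma adjusted p = 0.0099 and 0.00579), and 3.55 and 3.07 with a pseudocount of 0.1. *Ccr2*, the receptor for *Ccl2* that marks monocytes leaving the blood, was at 0.489, 0.659 and 0.301 TPM in WT (C57BL/6) and at 5.7, 1.86 and 2.54 TPM in YAPKO livers, where LM74 was again highest. *Ccr2* in the mixed set was at 0.454, 0.276 and 0.261 TPM in WT and at 2.96, 1.84 and 1.94 TPM in YAPKO TAZHET livers. Neither set overlapped, and the log2FC were 1.27 and 1.12 (limma adjusted p = 0.00843 and 0.00132), or 2.14 and 2.17 with a pseudocount of 0.1. *Xcr1*, a receptor of dendritic cells, reached 0.444 TPM and was not tested.

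Only 3 of the 10 lymphocyte receptors passed the filter. *Cxcr4*, the receptor for *Cxcl12* that neutrophils and macrophages also carry, was at 2.02, 1.35 and 1.19 TPM in WT (C57BL/6) and at 4.29, 9.36 and 4.42 TPM in YAPKO livers, with LM189 highest, a log2FC of 1.16 (limma adjusted p = 0.0168, 0.0543 without LM192 and 0.0594 without LM193). *Cxcr4* in the mixed set was at 1.9, 0.775 and 1.44 TPM in WT and at 4.01, 4.42 and 2.82 TPM in YAPKO TAZHET livers, a log2FC of 0.8 (limma adjusted p = 0.0191, and 0.0676 without LM250). After quantile normalization the latter was 0.56 (limma adjusted p = 0.0665). No model liver overlapped with its WT littermates. *Cxcr3*, the T cell receptor for *Cxcl9*, *Cxcl10* and *Cxcl11*, was at 0.857, 0.858 and 1.31 TPM in WT (C57BL/6), 1.84, 0.691 and 0.246 TPM in YAPKO, 0.478, 0.877 and 1.38 TPM in WT (mixed) and 0.761, 1.17 and 0.809 TPM in YAPKO TAZHET livers, overlapped in both sets and passed in neither (limma adjusted p = 0.389 and 0.662).

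The atypical receptors went different ways. *Ackr3*, which takes up *Cxcl12* and *Cxcl11*, was at 0.511, 0.76 and 0.237 TPM in WT (C57BL/6) and at 3.53, 3.98 and 2.45 TPM in YAPKO livers. *Ackr3* in the mixed set was at 0.282, 0.314 and 0.465 TPM in WT and at 2.56, 2.42 and 3 TPM in YAPKO TAZHET livers. No WT liver reached 1 TPM and every model liver was above 2 TPM, with log2FC of 1.33 and 1.27 (limma adjusted p = 0.00189 and 0.000528), or 2.26 and 2.34 with a pseudocount of 0.1. *Ackr4*, which takes up *Ccl19*, Ccl21 and *Ccl25*, was at 1.16, 2 and 1.34 TPM in WT (C57BL/6) and at 0.601, 0.838 and 0.611 TPM in YAPKO livers, all lower than WT, a log2FC of -0.73 (limma adjusted p = 0.0137, 0.0541 without LM192, and -1.33 with a pseudocount of 0.1). *Ackr4* in the mixed set was at 1.04, 1.3 and 1.93 TPM in WT and at 0.889, 1.05 and 0.988 TPM in YAPKO TAZHET livers, which overlapped (log2FC -0.45, limma adjusted p = 0.0851, 0.0426 without LM226, and -0.29 with limma adjusted p = 0.22 without LM230).

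*Ackr1*, which binds many inflammatory chemokines on red cells and venules, was at 0.689, 1.28 and 0.684 TPM in WT (C57BL/6) and at 2.31, 2.29 and 2.33 TPM in YAPKO livers, nearly equal among themselves, a log2FC of 0.62 (limma adjusted p = 0.0225). The call was lost without LM75, LM193, LM189 or LM191 (limma adjusted p from 0.0598 to 0.0784) and after quantile normalization (0.38, limma adjusted p = 0.11). With a pseudocount of 0.1 the log2FC was 1.01. *Ackr1* in the mixed set was at 2.5, 1.15 and 6.11 TPM in WT and 5.28, 2.88 and 3.46 TPM in YAPKO TAZHET livers, which overlapped (log2FC 0.1, limma adjusted p = 0.874, -0.32 without LM227, -0.07 without LM225 and 0.6 without LM230), with the highest value in the WT liver LM230. *Ackr1* shares 25.7% of its exon bases with *Cadm3* on the same strand. *Ackr2*, a scavenger of inflammatory CC ligands, was at 1.28, 2.51 and 0.869 TPM in WT (C57BL/6), 4.43, 2.79 and 1.84 TPM in YAPKO, 0.982, 2.39 and 1.99 TPM in WT (mixed) and 3.33, 1.76 and 2.44 TPM in YAPKO TAZHET livers, overlapped in both sets and passed in neither.

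**Figure D3:**
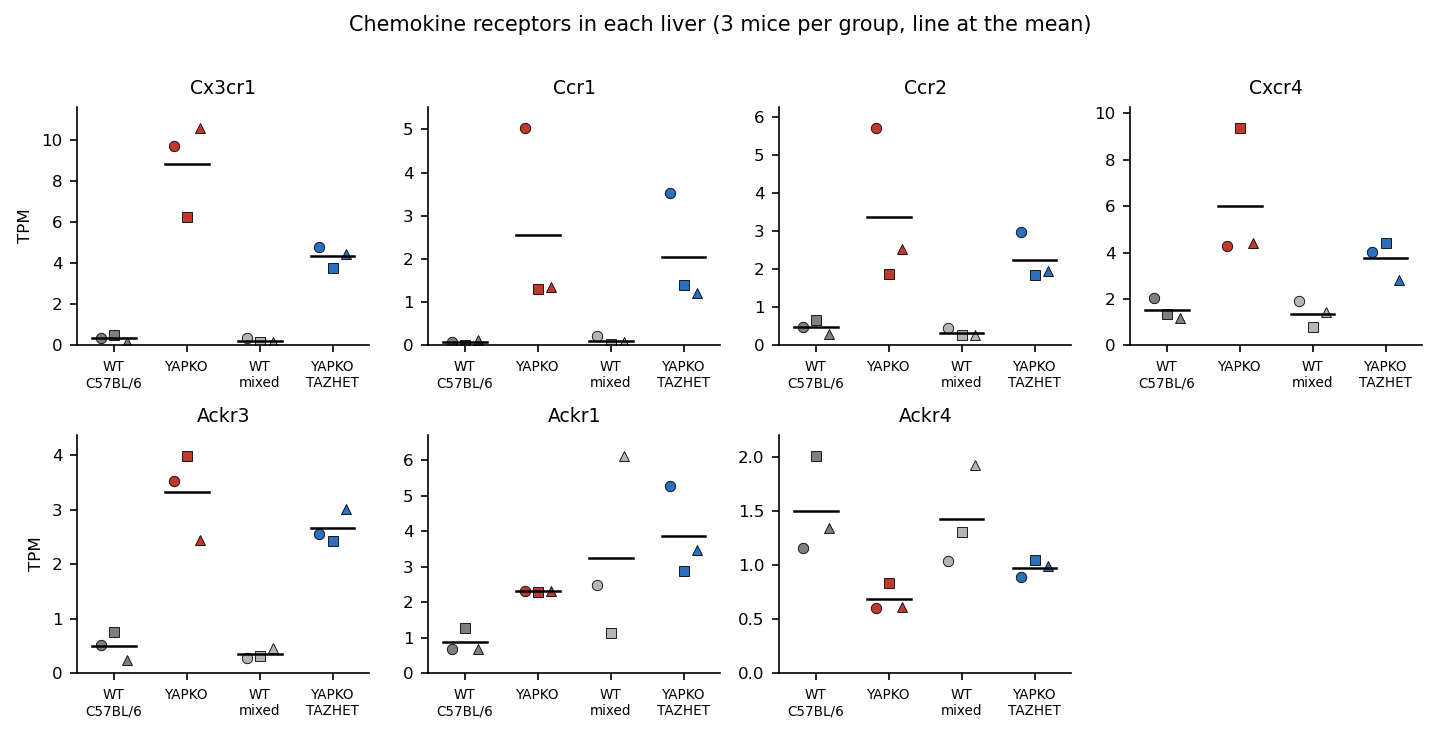
TPM of 7 receptors in each liver (y axis, as deposited and before scaling), with 1 point per mouse and a line at the mean of the 3 mice of a group. Cx3cr1, Ccr1, Ccr2, Cxcr4 and Ackr3 of every model liver lie above the WT littermates, Ackr4 of the YAPKO livers lies below them, and Ackr1 of the mixed set overlaps between the groups, with 6.11 TPM in the WT liver LM230.

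Set side by side, ligands and receptors of 1 axis did not always move together. *Cx3cl1* with *Cx3cr1*, *Ccl2* with *Ccr2* and *Ccl6* with *Ccr1* were higher on both sides in both models. Other ligands of CCR1 and CCR2 did not all pass: *Ccl9* and *Ccl7* passed in neither model, and *Ccl3* only in YAPKO TAZHET livers. The log2FC of *Ccl7* were 0.91 and 0.92, which point up as those of *Ccl2* do. *Cx3cl1*, *Cx3cr1*, *Ccr1*, *Ccr2* and *Ackr3* passed the filter only through the models, so they had little room to be called lower. *Cxcl12* was lower while its receptors *Cxcr4* and *Ackr3* were higher. *Cxcl16* and *Cxcl10* were higher while their receptors *Cxcr6* and *Cxcr3* did not pass the test. *Cxcl1* was higher, while its receptor *Cxcr2*, under 1 TPM in every liver, was not tested. For *Cxcr2*, every YAPKO TAZHET liver was above its WT littermates, as were LM74 and LM189 of the YAPKO livers but not LM191. Of the other CXCR3 ligands, *Cxcl11* was lower in YAPKO livers and *Cxcl9* passed in neither model.

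Summed over all 38 genes, ligand TPM were 224 to 249 in WT (C57BL/6) and 456 to 643 in YAPKO livers, and 220 to 269 in WT (mixed) and 331 to 443 in YAPKO TAZHET livers. These sums are of TPM as deposited. Neutrophil attractants went from 3.97 to 6.68 TPM to 63 to 263 TPM in the YAPKO set and from 5.76 to 10.3 TPM to 42.6 to 81.7 TPM in the YAPKO TAZHET set. Monocyte attractants summed to 51.7 to 62.1 TPM in WT (C57BL/6) and to 107 to 159 TPM in YAPKO livers, and to 47.1 to 76.5 TPM and 130 to 174 TPM in the mixed set. Ligands outside these classes, mostly *Cxcl14*, summed to 3.56 to 5.47 TPM and 73.7 to 119 TPM in the YAPKO set and to 3.6 to 7.3 TPM and 31.5 to 76.2 TPM in the mixed set. Lymphocyte attractants overlapped between the groups in these unscaled sums. They were at 152 to 183 TPM in WT (C57BL/6) and 136 to 160 TPM in YAPKO livers, and at 143 to 178 TPM and 110.5 to 156 TPM in the mixed set. Scaling factors, by which TPM were divided for the tests, were 0.852 to 0.9125 in WT (C57BL/6) and 1.085 to 1.22 in YAPKO livers. In the mixed set the factors were 0.858 to 0.947 in WT and 1.075 to 1.18 in YAPKO TAZHET livers. The overlap therefore need not hold on the scale of the tests. *Cxcl12* alone held 49.6% to 56.3% of the summed TPM of all 38 ligands in WT (C57BL/6), 10.4% to 19.5% in YAPKO, 48.2% to 62.6% in WT (mixed) and 18.9% to 20.9% in YAPKO TAZHET livers. *Cxcl14* went from a share of that sum of 0.851% to 1.1% to 13.1% to 22.7% in the YAPKO set and from 0.541% to 1.16% to 6.49% to 15.9% in the mixed set. The 22 receptors summed to 10.4 to 14.4 TPM in WT (C57BL/6), 31.6 to 46.8 TPM in YAPKO, 10.7 to 17.3 TPM in WT (mixed) and 28.5 to 36.4 TPM in YAPKO TAZHET livers.

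**Figure D4:**
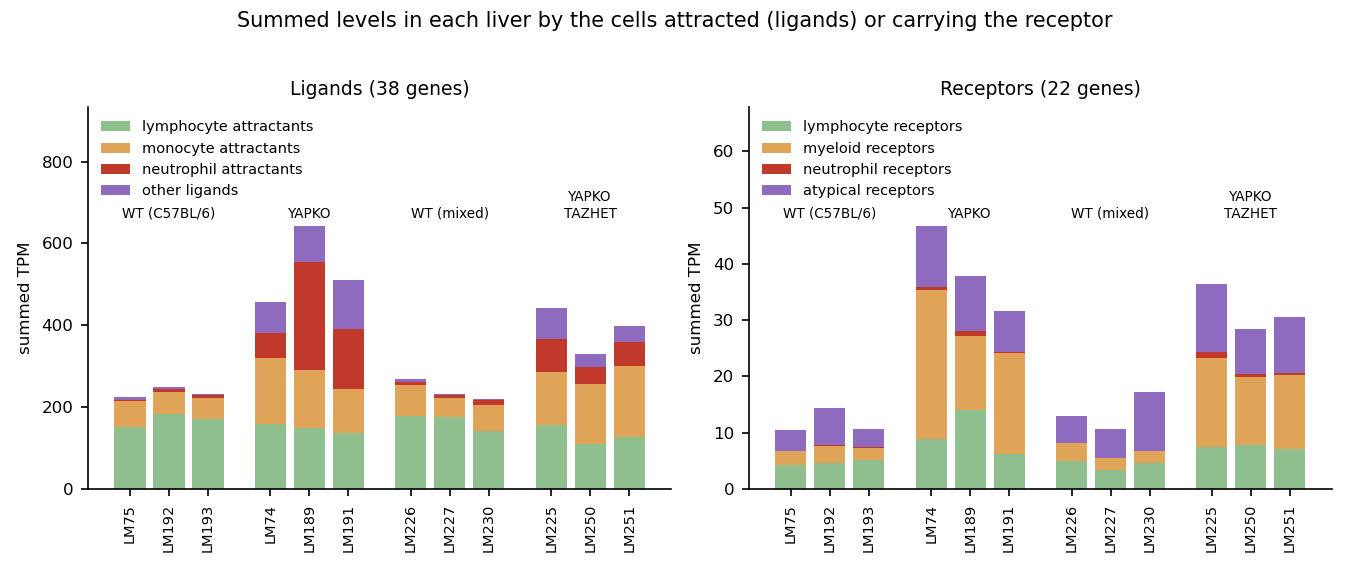
Summed TPM (y axis, as deposited and before scaling) of the 38 ligands (left) and 22 receptors (right) in each of the 12 livers (x axis), stacked by the cells that the ligands attract or that carry the receptors. The lymphocyte attractants, mostly Cxcl12, lie in all livers between 110.5 and 183 TPM, while neutrophil attractants grow to 263 TPM in YAPKO liver LM189.

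Many members lie in clusters on the chromosome, and neighbours were not all called alike. No test compared neighbours with each other. In the chromosome 11 cluster from 82035571 to 82305690, *Ccl2* was higher in both models while *Ccl7* and *Ccl8* did not pass and *Ccl1*, *Ccl11* and *Ccl12* were under the filter. The log2FC of *Ccl7* were 0.91 and 0.92, in the same direction as *Ccl2*. Farther along, from 83525778 to 83664683, all 5 genes (*Ccl5*, *Ccl9*, *Ccl6*, *Ccl3* and *Ccl4*) passed the filter and 2 were higher in YAPKO and 3 in YAPKO TAZHET livers. Among all tested genes, 18.7% and 19.2% were higher. On chromosome 5 from 90759360 to 90905938, *Cxcl1* and *Cxcl2* were higher in both models and *Cxcl5* in YAPKO TAZHET livers, while *Cxcl3* and *Cxcl15* were under the filter. Of the receptor genes that lie together on chromosome 9, *Ccr1* and *Ccr2* were higher in both models, *Cxcr6* did not pass, and *Ccr9*, *Xcr1* and *Ccr3* were under the filter.

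The test of the difference between the models, the change in YAPKO minus that in YAPKO TAZHET livers, called 0 of the 36 members (limma adjusted p under 0.05), where 0.0576% of all tested genes were called. At an unadjusted p under 0.05 there were 4 members, against 4.56% of all tested genes: *Cx3cr1*, *Cxcl1*, *Cxcl2* and *Cxcl14*, all with the larger rise in YAPKO livers. The difference was 0.68 for *Cx3cr1* (95% confidence interval 0.15 to 1.21), 1.51 for *Cxcl1* (0.15 to 2.87), 1.76 for *Cxcl2* (0.36 to 3.15) and 1.16 for *Cxcl14* (0.07 to 2.24), with limma adjusted p of 0.962 for *Cx3cr1* and *Cxcl2* and 0.999 for *Cxcl1* and *Cxcl14*. Without LM74, the YAPKO liver with the lowest *Cxcl2*, the difference for *Cxcl2* was 2.44 (limma adjusted p = 0.0128), and without LM189 it was 1.17 (limma adjusted p = 1). For *Ccl2*, *Ccl6* and *Ccr2* the intervals were -0.75 to 1.35, -1.3 to 0.25 and -0.57 to 0.88. The 5 calls made in YAPKO TAZHET livers alone (*Ccl24*, *Ccl3*, *Ccl19*, *Cxcl5* and *Cxcl13*) and the 5 made in YAPKO livers alone (*Cxcl11*, *Ccl27a*, *Ackr4*, *Ccl17* and *Ackr1*) are not shown to differ between the models.

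Between the WT groups, which carry no knockout, 0 members were called (limma adjusted p under 0.05), where 0.173% of all tested genes were called. At an unadjusted p under 0.05 there were 4 members (*Ccl8*, *Ccl27a*, *Ccl25* and *Ackr1*), against 5.82% of all tested genes. *Ccl8*, listed at 0 in all WT (mixed) livers, was the only member to pass once LM75 was left out (limma adjusted p = 0.0448). The sets stand in separate tables and were scaled here together. The other WT levels are those given above, and *Cxcl12*, *Ccl9* and *Ccl6* were the most abundant ligands in both WT groups.

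Markers of immune cells were read beside the chemokines. Among all tested genes, 18.7% were higher in YAPKO and 19.2% in YAPKO TAZHET livers. Of 10 Kupffer cell and macrophage markers, 9 were higher in each model, and their summed level was 1091 to 1545 TPM in YAPKO livers against 401 to 520 TPM, and 1552 to 1666 TPM in YAPKO TAZHET livers against 351 to 718 TPM. Of 8 markers of monocytes and monocyte-derived macrophages, 8 and 7 were higher, with sums of 468 to 720 TPM against 86.1 to 109 TPM and of 430 to 511 TPM against 71.9 to 168 TPM. *Clec4f*, which defines Kupffer cells, was at a mean of 77.5 TPM in WT (C57BL/6) and 144 TPM in YAPKO livers, and *Timd4* passed in neither model. Of 11 T and natural killer cell markers 3 could be tested, with 0 higher in YAPKO and 1, *Cd3g*, in YAPKO TAZHET livers, and their sums overlapped, at 5.13 to 17.6 TPM against 5.54 to 9.47 TPM and at 6.61 to 11.2 TPM against 5.25 to 7.05 TPM. None of the 2 tested B cell and 2 tested dendritic cell markers passed in either model. Of 4 tested cholangiocyte markers, *Sox9* and *Spp1* were higher in both models, and *Krt19* passed in neither (limma adjusted p = 0.736 and 0.15). *Epcam* was lower in YAPKO TAZHET livers and did not pass in YAPKO livers. *Cftr*, not tested, stayed under 0.5 TPM in every liver. The part of any of these cells in the levels of the chemokines and receptors was not tested.

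**Figure D5:**
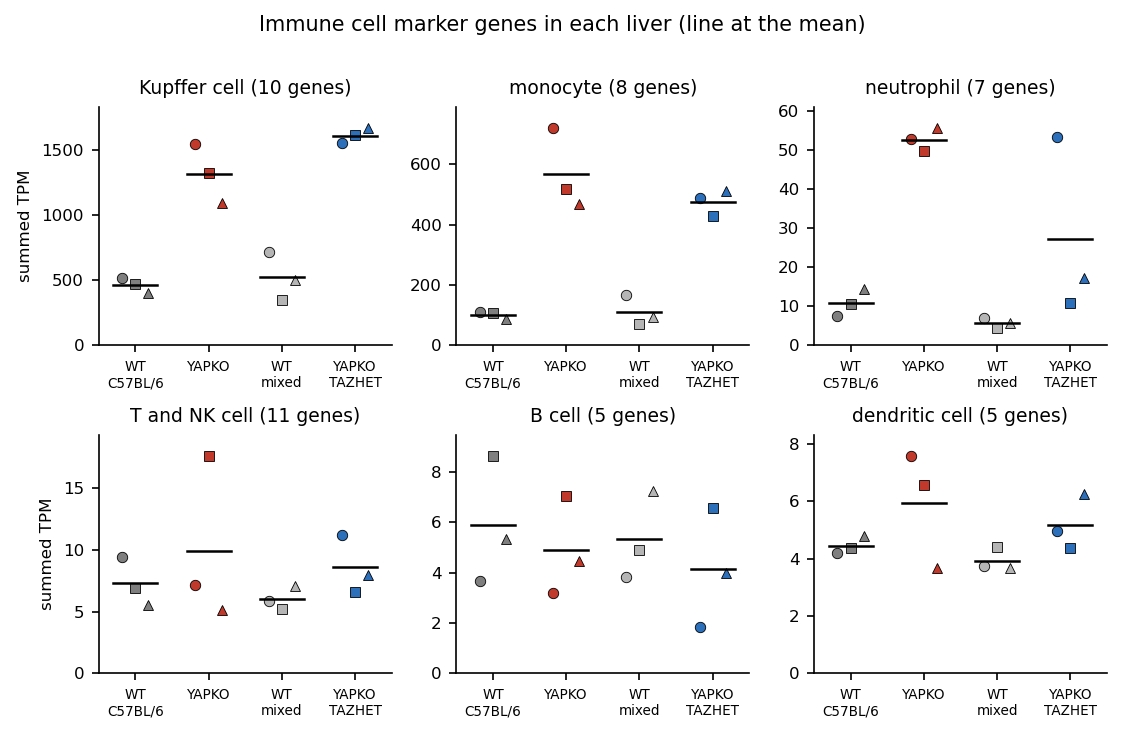
Summed TPM (y axis, as deposited and before scaling) of 6 lists of immune cell markers in each liver, with 1 point per mouse and a line at the mean of a group. Kupffer cell and monocyte markers of all model livers lie above all WT livers, neutrophil markers of the YAPKO livers and of LM225 lie near 50 TPM (49.6 to 55.5 TPM), and T cell, B cell and dendritic cell markers overlap between the groups.

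Chemokine signalling genes outside the name rule were mostly higher or did not pass. Among all tested genes, 18.7% were higher in YAPKO livers, 19.2% in YAPKO TAZHET livers and 14.9% in both. Of 27 tested of 29 listed genes (further ligands and receptors, G protein subunits, arrestins, receptor kinases and leukocyte signalling proteins), 19 were higher and 0 lower in YAPKO livers, and 20 were higher and 1, *Gpr182*, lower in YAPKO TAZHET livers, with 17 higher in both and medians of 0.64 and 0.61. Ranked by the mean of both models, the 3 that changed most were *Rgs2*, *Rgs1* and *Grk3*. *Rgs1*, which ends signalling of chemokine receptors in leukocytes, was at 0.804, 0.295 and 0.462 TPM in WT (C57BL/6), 3.58, 18.6 and 13.4 TPM in YAPKO, 0.569, 0.411 and 0.231 TPM in WT (mixed) and 2.32, 1.55 and 2.38 TPM in YAPKO TAZHET livers, with log2FC of 2.64 and 0.98 (limma adjusted p = 0.00504 and 0.00316). *Rgs2*, a relative that acts mainly on the G protein Gq, had log2FC of 2.29 and 1.86 (limma adjusted p = 0.00168 and 0.000283), and *Grk3*, a kinase that desensitizes receptors, of 0.99 and 1.45 (limma adjusted p = 0.00906 and 0.000246). The groups did not overlap for any of the 3 in either set.

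Cytokines and transcription factors known to induce chemokine genes gave 12 higher and 0 lower of 20 tested in YAPKO livers and 11 higher and 0 lower in YAPKO TAZHET livers, 10 of them in both, with medians of 0.77 and 0.59. The shares higher among all tested genes were 18.7%, 19.2% and 14.9% in both. *Egr1*, an immediate-early factor, was at 8.4, 7.57 and 11.3 TPM in WT (C57BL/6), 42.9, 497 and 259.7 TPM in YAPKO, 5.43, 6.41 and 12.9 TPM in WT (mixed) and 32.7, 29.3 and 24.5 TPM in YAPKO TAZHET livers, and the log2FC were 3.82 and 1.46 (limma adjusted p = 0.00722 and 0.00643). *Relb*, a subunit of NF-kB, changed by 2.08 and 1.73 (limma adjusted p = 5.08e-05 and 0.000243), and *Tnfaip3*, which restrains NF-kB, by 1.96 and 1.76 (limma adjusted p = 0.000724 and 0.000112). Not every listed cytokine passed. *Il1a* and *Il1b* passed in neither model, and *Tnf* passed in YAPKO TAZHET livers only. *Ifng*, *Il17a*, *Lta* and *Csf2* stayed under 0.5 TPM in every liver.

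The 24 members under the filter reached at most 2.02 TPM. *Xcl1*, just outside it with 2 livers at 1 TPM, reached 2.02 TPM in LM225 and 1.46 TPM in LM74, while *Ccl17*, *Cxcl2* and *Cxcl5*, just inside it, had 3 such livers. *Ccl20*, *Ccl27b*, *Cxcl15*, *Ccl26* and *Cxcl17* were listed at 0 in every liver. Of the rest, *Ccr7* and *Ccl21b* reached 1.86 and 1.69 TPM in 1 liver each, *Ccl12*, *Cxcr2* and *Ccr10* reached 0.982, 0.865 and 0.746 TPM, and *Ccl22*, *Ccl28*, *Ccl1*, *Cxcl3*, *Ccl11*, *Cxcr5*, *Ccr9*, *Ccr6*, *Ccr4*, *Ccr8*, *Xcr1*, *Ccr3* and *Cxcr1* stayed under 0.5 TPM in every liver.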

How the data were processed

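Whole-liver RNA of 12 mice in 4 groups of 3 was sequenced. With CLC Genomics Workbench and the mouse assembly GRCm38.p6 the authors made the deposited TPM of each gene and mouse, held in 1 table per pair of groups, with columns of an edgeR comparison (fold change, log2 fold change, p-value and FDR) that were not used. Every deposited library sums to 1000000, so the depth, and with it the counting error, is unknown. Strand handling was not given in the sources used here.

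TPM of both tables were joined by gene, and a scaling factor was computed for each library as a trimmed mean of log ratios. Tests covered the 12159 of 41743 genes that reached 1 TPM in 3 or more livers. Each model was compared with its own WT littermates with limma 3.58.1 in R 4.3.3 on log2(TPM / factor + 1), two-sided, with a trend in the variance and Benjamini-Hochberg adjustment over all tested genes at 0.05, from the 6 livers of that pair. The difference between the models used all 12 livers, and the difference between the WT groups the 6 WT livers. The mice are numbered singly and unpaired. An exact permutation test of 3 against 3 livers cannot give a p below 0.1, so p-values come from limma alone. The script was tested on simulated data. Sums, shares and figures used Python 3.11.15, pandas 2.3.3 and matplotlib 3.10.9.

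Values in every liver are given for members called in any comparison and for the 2 most abundant of each role, 1 member enters the counts and sums over all members but its own values are not reported here, members under the minimum are listed with their highest TPM, and from the lists of other genes the 3 with the largest change among those called in both models are named. Markers named singly were chosen after their values were seen. Members, roles, gene lists and marker lists were chosen with earlier results of these data known. Alternatives were a pseudocount of 0.1, no minimum or 5 TPM, no scaling, quantile normalization, robust shrinkage, 1 fit of all livers, an adjusted p of 0.01, and leaving out each liver. Near-identical copies and overlapping exons of the members were looked up in the reference transcripts of GRCm38.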

Additional observations from a re-analysis of the deposited data

How the results depend on the processing

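Of the 21 members called in YAPKO livers 16 kept an adjusted p under 0.05 in every other setting that tested them, and of the 21 in YAPKO TAZHET livers 14. Among these, *Ackr3*, *Ccl2*, *Ccl6*, *Ccr1*, *Ccr2*, *Cx3cl1*, *Cx3cr1*, *Cxcl1*, *Cxcl12*, *Cxcl14* and *Cxcl16* did so in both models, though *Ackr3*, *Ccr1*, *Ccr2* and *Cx3cl1* were not tested at a minimum of 5 TPM. No called member changed direction. A minimum of 5 TPM left 13 members to test, with 9 called in each model, and an adjusted p of 0.01 left 16 in YAPKO and 13 in YAPKO TAZHET livers. With single livers left out the counts ran from 19 to 22 and from 15 to 21. These counts show only how far the calls hold. They are not set against the shares of all tested genes at the same settings. The difference between the models called 0 to 1 members as single livers were left out (1 without LM74) and the WT comparison 0 to 1 (1 without LM75). Directions that changed belonged to values that did not pass: *Ccl19* in YAPKO livers ran from -0.06 without LM193 to 0.74 with single livers left out, and *Ackr1* in YAPKO TAZHET livers from -0.32 to 0.6 and -0.11 after quantile normalization. The median of the lymphocyte attractants in YAPKO livers was 0.05 without scaling. In YAPKO TAZHET livers the median of the atypical receptors was -0.12 after quantile normalization and -0.06 to 0.41 with single livers left out, and that of the lymphocyte receptors -0.06 and -0.02 to 0.41. The cause was not tested. No paired analysis was possible because every mouse has a number of its own. TPM carry no read counts, so what depth limits cannot be given.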

Other observations

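The 3 YAPKO livers did not rank alike across the chemokine system, as seen after their values were read. Liver LM189 was highest and LM74 lowest for *Cxcl1* (248 against 59.4 TPM), *Cxcl2* (13.2 against 1.5 TPM), *Rgs1* (18.6 against 3.58 TPM) and *Egr1* (497 against 42.9 TPM). Liver LM74 was highest for the myeloid receptors *Ccr1* (5.03 TPM against 1.3 and 1.35 TPM) and *Ccr2* (5.7 TPM against 1.86 and 2.54 TPM). Among YAPKO TAZHET livers, LM225 was highest for the summed neutrophil markers, *Cxcl1*, *Cxcl2*, *Cxcl14*, *Ccl4* and *Ccr1*, and lowest for *Ccl6*, *Ccl9*, *Ccl19* and *Ccl24*. With 3 mice in a group no test of these orders was made.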
